A study of Homo sapiens with 12 samples.

Results

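The erythro-megakaryocytic transcription factors GATA1, GATA2, KLF1, TAL1, LMO2, NFE2, GFI1B, ZFPM1, RUNX1 and FLI1 were followed through drug treatment and relapse of HEL cells, an established human erythroleukemia cell line used as a model of acute myeloid leukemia (AML). They were taken by exact gene symbol from the count table, where all 10 were found among the 26481 genes kept. All 10 also passed the filter on low counts, as did 14164 genes in all. RNA was sequenced from 12 cultures of barcoded HEL cells in 4 groups. Untreated cells (NT, n = 2) received the vehicle dimethyl sulfoxide and are listed at 30 days, as the relapses are. The other groups were relapses, harvested about 30 days after a 72 h exposure, once the surviving cells had grown back to the number first seeded: doxorubicin alone at 1.8 µM in 3 cultures (Doxo), the same dose plus cytarabine at 6 µM in 3 more (Doxo+Cyta), and that pair plus decitabine at 0.1 µM in 4 (Doxo+Cyta+DAC). Doxorubicin is an anthracycline that poisons topoisomerase, cytarabine is a nucleoside analogue that blocks DNA synthesis, and decitabine is a cytidine analogue that inhibits DNA methyltransferases. There was no group with decitabine alone. All groups derive from 1 cell line, every relapse had passed through a strong reduction of its cells, and the barcode clones that made up each library were not analysed here. The series text describes 3 untreated replicates, and the 2 that are labelled were used.

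The listed factors form the core of the regulatory network shared by the red cell and platelet lineages. GATA2 is active in early progenitors and is replaced on many of its sites by GATA1 as cells mature, with ZFPM1 (FOG1) as the cofactor that GATA1 needs. GATA1 works in a complex with the basic helix-loop-helix factor TAL1, whose partner LMO2 bridges it to LDB1. KLF1 drives the erythroid and FLI1 the megakaryocytic branch, and each is known to restrain the other. NFE2, GFI1B and RUNX1 act in both branches, in globin and platelet genes, in repression of progenitor genes and in the making of megakaryocytes, respectively.

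Total counts lay between 12763582 and 19106235 per library, so that 3 counts, the lowest level taken as detectable, correspond to 0.157 CPM in the deepest and 0.235 CPM in the shallowest library, a floor set by counting error alone. CPM are counts scaled to the size of the library, here after TMM correction of library sizes, and all levels below are given in them. The labels of the cell line were checked against marker genes. The fetal globin gene HBG2 lay between 3124 and 6411 CPM over the libraries and the platelet integrin gene ITGA2B between 857 and 1713 CPM, whereas the platelet chemokine gene PF4 reached at most 0.14 CPM. HBG2 has a near-identical copy, HBG1, so its exact level is uncertain. The myeloid enzyme gene MPO and the T cell gene CD3E both stayed at or below 0.16 CPM. Of the markers of other cell types, the summed level lay between 135 and 195 CPM for 18 granulocyte and monocyte genes, between 38.1 and 70.7 CPM for 12 lymphoid genes and between 129 and 177 CPM for 12 stromal and epithelial genes. In each group at least 6 of the genes in each of these lists had at most 3 counts in every library. In the stromal and epithelial list, PECAM1 alone averaged 107 CPM in Doxo, 110 CPM in Doxo+Cyta and 131 CPM in Doxo+Cyta+DAC. SPI1 of the granulocyte and monocyte list, between 34.5 and 78.3 CPM, is also counted below among the ETS and megakaryocytic factors. Of all tested genes, 24.9% were higher and 23.7% lower in Doxo+Cyta+DAC than in NT, at an adjusted p under 0.05. In that comparison 1 of 9 tested granulocyte and monocyte genes was higher and 2 were lower. Among lymphoid genes 1 of 6 was higher and 2 were lower, and 1 of 4 stromal and epithelial genes was lower. The last was PDGFRB, which averaged 36.9 CPM in NT, 42.6 CPM in Doxo, 47.0 CPM in Doxo+Cyta and 7.29 CPM in Doxo+Cyta+DAC. The part of such cells in the results below was not tested. Libraries Doxo 4 and Doxo+Cyta 20 stood apart from the rest of their groups. The root-mean-square difference of log2 CPM over all tested genes was 0.52 to 0.53 from Doxo 4 to the other Doxo libraries, which were 0.30 apart. It was 0.57 to 0.58 from Doxo+Cyta 20 to the others of its group, which were 0.36 apart. Doxo 4 and Doxo+Cyta 20 were themselves 0.56 apart. Factor results that rest on them are given with and without them, as are the counts of target genes and corepressors in Doxo+Cyta+DAC. The other gene lists are given with all libraries. No 2 libraries of a group agreed within sampling noise.

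The promoter sequences of 3 factors are shown first, since these genes changed in the relapses after decitabine and differ in GATA letters and CpG content. GATA1 and KLF1 fell in those relapses and RUNX1 rose. RefSeq promoter windows on GRCh38.p14, each 300 bases around a transcription start, were at hand for 7 of the 10 factors, the others being LMO2, NFE2 and FLI1. The bases of each window upstream of its transcription start are printed 5′ to 3′ on the strand of the gene. They stop early where an annotated exon of the gene begins. The RUNX1 start lies inside the gene, whose annotated span reaches upstream to chr21:35049298. Capitals mark AGATAA or TGATAA, or the same with G as the last letter, on either strand, the letters that GATA factors are known to bind.
KLF1 (chr19:12887204-12887451, minus strand): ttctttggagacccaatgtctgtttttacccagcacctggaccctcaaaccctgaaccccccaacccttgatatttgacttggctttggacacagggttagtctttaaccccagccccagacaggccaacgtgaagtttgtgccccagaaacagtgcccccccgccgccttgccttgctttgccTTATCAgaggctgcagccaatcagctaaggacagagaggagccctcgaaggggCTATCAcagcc
GATA1 (chrX:48786340-48786573, plus strand): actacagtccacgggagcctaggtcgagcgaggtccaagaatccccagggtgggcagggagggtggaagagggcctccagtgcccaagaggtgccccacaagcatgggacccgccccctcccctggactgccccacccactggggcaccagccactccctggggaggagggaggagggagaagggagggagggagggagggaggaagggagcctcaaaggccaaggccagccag
RUNX1 (chr21:34888700-34888949, minus strand): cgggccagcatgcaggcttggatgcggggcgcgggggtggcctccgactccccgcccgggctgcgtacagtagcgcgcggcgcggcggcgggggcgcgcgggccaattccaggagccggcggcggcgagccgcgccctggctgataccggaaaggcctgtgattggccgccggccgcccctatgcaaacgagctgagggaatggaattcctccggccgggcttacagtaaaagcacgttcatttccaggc

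The KLF1 window held 2 GATA matches, both upstream of the start. A further match lay in each of 1 TAL1 window and both GFI1B windows, and none was found in GATA1, GATA2, RUNX1 or ZFPM1. Such letters occur in 25.0% of the 35116 promoter windows in the RefSeq table, so that their presence is a description and says nothing about binding. The RUNX1 window, which lies within the span of the gene, held 40 CpG dinucleotides, more than 92.4% of all windows. ZFPM1 had 47, above 97.6% of windows. GATA1 held 7 and KLF1 6, against a median of 14 over all windows. Both windows of GATA2, which also fell in the decitabine relapses, held more than that median, at 29 and 22. The TAL1 windows held 30 and 19, and the GFI1B windows 6 and 9. Whether CpG content goes with the direction of change was not tested. The letters TGTGGT, which RUNX factors bind, occurred 3 times in the other TAL1 window and in no other window of the 7 factors, against 13.1% of all windows. TGAGTCA, bound by NFE2, and CCGGAAG, bound by ETS factors such as FLI1, were in none of them, against 4.9% and 10.3% of all windows.

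In untreated cells the factors ranked from GATA2 to ZFPM1 when counts were divided by summed exon length. GATA2 stood at 282 ± 0.11 CPM per kb (mean ± SD, n = 2), above 98.8% of tested genes. GATA1 followed at 189.6 ± 13.3 and NFE2 at 139 ± 2.14 CPM per kb. KLF1 was at 91.2 ± 7.93, FLI1 at 81.1 ± 1.29 and TAL1 at 79.1 ± 3.75 CPM per kb, and the libraries of FLI1 and TAL1 overlapped. GFI1B at 72.0 ± 2.16, LMO2 at 56.9 ± 1.86, RUNX1 at 41.0 ± 2.04 and ZFPM1 at 18.3 ± 0.284 CPM per kb completed the order, with no overlap between neighbours. ZFPM1, the lowest, was above 73.8% of tested genes, and all 10 passed the count filter. The order was the same in Doxo and Doxo+Cyta, although there the libraries of GATA2 and GATA1, of KLF1 and FLI1, of FLI1 and TAL1, and of TAL1 and GFI1B overlapped. In Doxo+Cyta+DAC, FLI1 moved from position 5 to 9, at 35.1 ± 1.90 CPM per kb (n = 4), and KLF1 from 4 to 7, at 55.7 ± 11.6. GFI1B moved from 7 to 4, at 88.8 ± 10.9, and RUNX1 from 9 to 6, at 58.4 ± 4.58 CPM per kb. In that group the libraries overlapped between GATA2 and GATA1, NFE2 and GFI1B, RUNX1 and KLF1, KLF1 and LMO2, and LMO2 and FLI1.

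**Figure D1:**
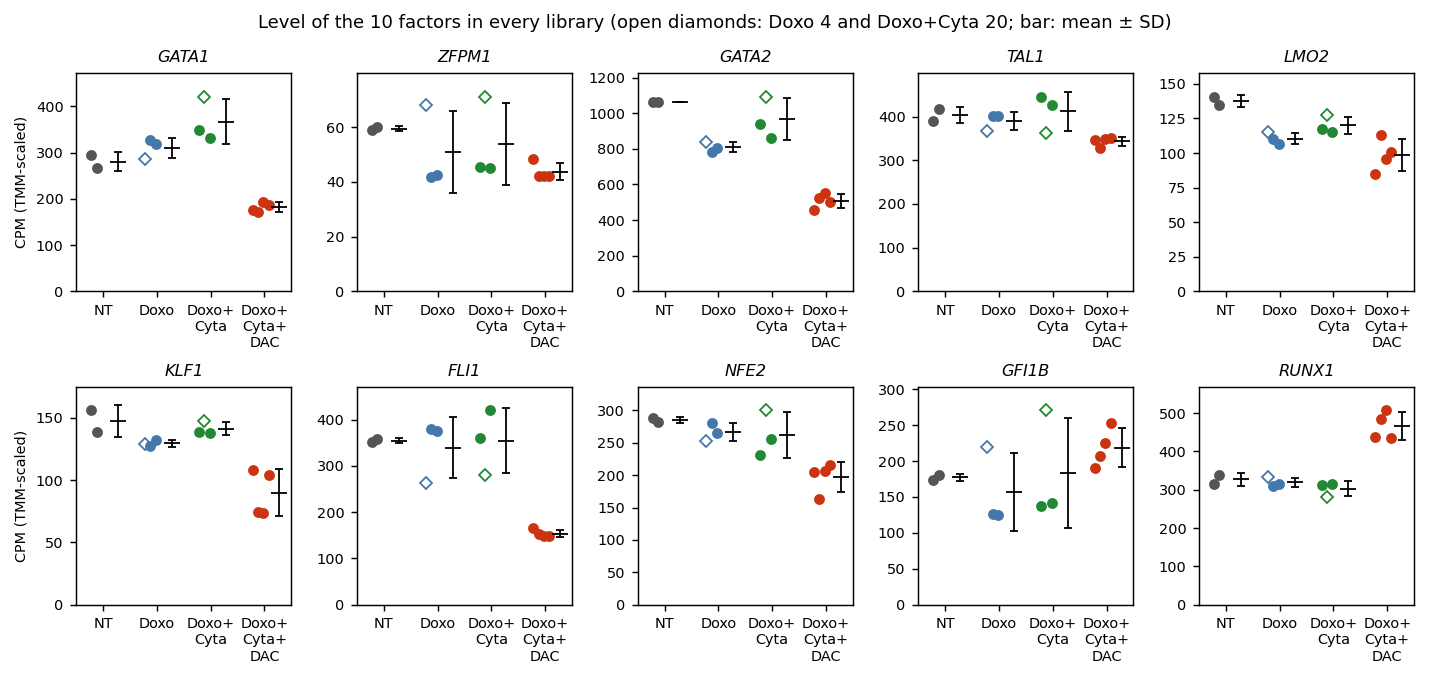
Level of each factor in CPM (vertical axes, linear from 0) in the 12 libraries, by group; points are libraries, open diamonds are Doxo 4 and Doxo+Cyta 20, and bars give mean ± SD. GATA1, GATA2, KLF1, NFE2 and FLI1 lie below the 3 other groups in all 4 Doxo+Cyta+DAC libraries, RUNX1 lies above them, and the open diamonds are the highest points of ZFPM1 and GFI1B within their groups.

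Relapses after all 3 drugs held less of most of these factors than untreated cells. Of the 10 factors, 6 were lower and 1 was higher in Doxo+Cyta+DAC than in NT at an adjusted p under 0.05, where 48.7% of all tested genes passed, 23.7% lower and 24.9% higher. The libraries of the groups did not overlap for any of the 10, as for 67.1% of tested genes. The median log2 fold change over the factors was -0.51, beside 0.02 over all tested genes. At an adjusted p under 0.01 and a fold change over 2, FLI1 and GATA2 remained, with 16.2% of tested genes. Differences in the amount of a transcript in such bulk cultures cannot be told apart from differences in the share of cells that hold it. The p-values measure the spread between these cultures, which the labels describe as biological replicates.

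Few factors differed from untreated cells after chemotherapy alone, and so did few genes of any kind. In Doxo relative to NT, 1 factor, GATA2, was lower, where 10.7% of tested genes passed, 6.06% higher and 4.63% lower. In Doxo+Cyta relative to NT none of the 10 passed in edgeR, where 1.46% of genes did, 0.911% higher and 0.551% lower. There 1 factor, GATA1, had an unadjusted p under 0.05, as did 2888 of the 14164 genes, and DESeq2 called none of the 10 either. Doxo+Cyta and Doxo differed in none of the 10 factors by edgeR or DESeq2, against 3.4% of genes in edgeR, 1.07% higher and 2.32% lower, and 2 of the factors, GATA1 and GATA2, had an unadjusted p under 0.05, as did 2673 genes. The libraries did not overlap for 4, 2 and 4 factors in these comparisons, against 49.0%, 40.6% and 21.0% of genes. Relative to the relapses without decitabine, Doxo+Cyta+DAC differed in 6 factors from Doxo, 5 lower and 1 higher, where 59.5% of genes passed, 30.4% lower and 29.1% higher. From Doxo+Cyta it differed in 8 factors, 7 lower and 1 higher, where 60.3% of genes passed, 30.5% lower and 29.8% higher. Without overlap of libraries were 7 factors against Doxo and 8 against Doxo+Cyta, beside 60.0% and 57.2% of genes. For Doxo+Cyta+DAC, the 6 of 10 factors called over Doxo lay close to the share of all genes. The 7 of 10 called over NT and the 8 of 10 over Doxo+Cyta lay above the shares of 48.7% and 60.3%. Whether such counts differ from the shares was not tested. More of the called factors were lower than higher, while the called genes split nearly evenly under TMM scaling. Under upper-quartile scaling the called genes were 2960 higher and 3891 lower over NT, and 3711 higher and 4830 lower over Doxo+Cyta, and the difference in direction between the factors and all genes was not tested. These comparisons share libraries and are not independent of each other.

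**Figure D2:**
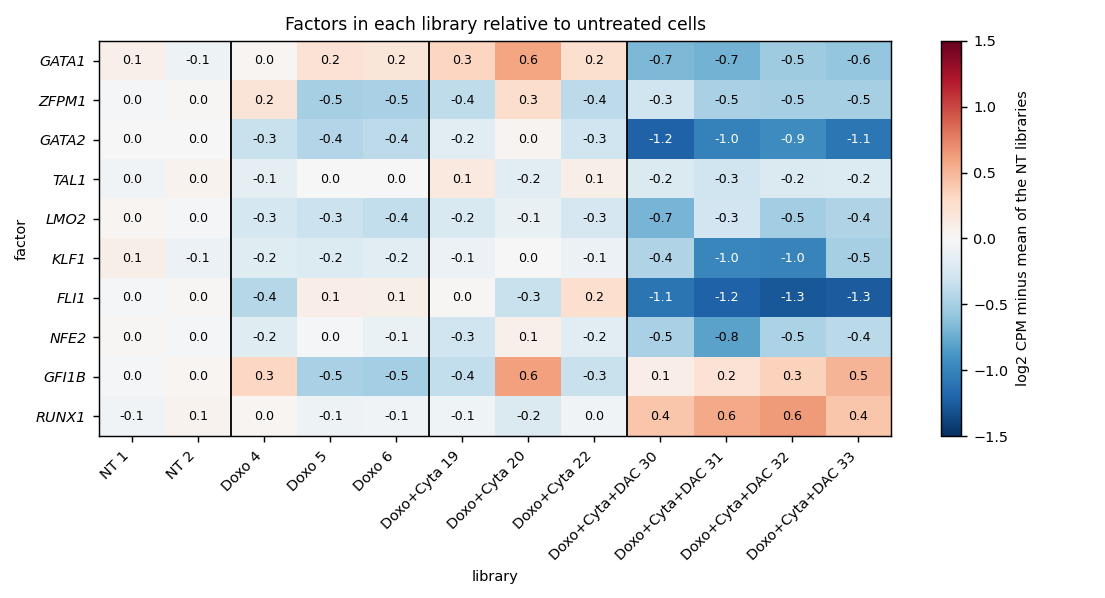
Log2 CPM of each factor (rows) in each library (columns) minus the mean of the NT libraries, in colour and in rounded figures; vertical lines separate the groups. FLI1 and GATA2 are the darkest rows in Doxo+Cyta+DAC, and Doxo 4 and Doxo+Cyta 20 differ from the rest of their groups in ZFPM1, FLI1 and GFI1B.

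Leaving out Doxo 4 and Doxo+Cyta 20, a choice made after the data were seen, raised most of these counts along with those of all genes. In Doxo over NT, 4 factors were then called, all lower, where 37.4% of genes were. In Doxo+Cyta over NT, 2 were called, both lower, where 14.5% of genes were. All 10 were called in Doxo+Cyta+DAC over NT, 8 lower and 2 higher, where 60.7% of genes were. The counts were 8 over Doxo and 9 over Doxo+Cyta, with 67.9% and 66.8% of genes. The gains came from ZFPM1, GFI1B, TAL1 and LMO2, which are described below.

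The GATA factors themselves fell in every decitabine relapse. GATA1 read 294 and 266 CPM in NT, 286, 326 and 318 CPM in Doxo 4, 5 and 6, and 350, 421 and 330.5 CPM in Doxo+Cyta 19, 20 and 22. It read 175, 172, 194 and 187 CPM in Doxo+Cyta+DAC 30 to 33. All 4 decitabine libraries lay below all 8 others, and all 3 Doxo+Cyta libraries lay above both NT libraries. GATA1 was 1.54 times lower in Doxo+Cyta+DAC than in NT (a log2 change of -0.62, SE 0.11, adjusted p = 0.000505). It was 1.70 times lower than in Doxo (-0.77, SE 0.10, adjusted p = 2.14e-05) and 2.02 times lower than in Doxo+Cyta (-1.01, SE 0.10, adjusted p = 1.72e-06). The higher level in Doxo+Cyta than in NT did not pass (log2 fold change 0.39, SE 0.12, adjusted p = 0.109).

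GATA2, the progenitor member of the pair, already differed after doxorubicin. Its level was 1061 and 1062 CPM in NT and 839, 783 and 806 CPM in Doxo. In Doxo+Cyta it was 942, 1093 and 863 CPM, and in Doxo+Cyta+DAC 458, 524, 551 and 499.8 CPM. The Doxo libraries all lay below both NT libraries, the Doxo+Cyta libraries spanned them, and the decitabine libraries lay below all others. GATA2 was 2.09 times lower in Doxo+Cyta+DAC than in NT (a log2 change of -1.06, SE 0.11, adjusted p = 6.28e-06). The log2 fold change was -0.67 against Doxo (SE 0.10, adjusted p = 4.4e-05) and -0.93 against Doxo+Cyta (SE 0.10, adjusted p = 2.41e-06). The fall in Doxo relative to NT was 1.31-fold (-0.39, SE 0.11, adjusted p = 0.0428). That call was lost without NT 1 (adjusted p = 0.218), NT 2 (0.218), Doxo 5 (0.128) or Doxo 6 (0.109), with log2 fold changes between -0.41 and -0.39.

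ZFPM1, the GATA1 cofactor, was decided by single libraries. It read 58.8 and 60.1 CPM in NT, 68.1, 41.9 and 42.5 CPM in Doxo, and 45.5, 71.2 and 45.2 CPM in Doxo+Cyta. In Doxo+Cyta+DAC it read 48.4, 42.2, 42.1 and 42.0 CPM. Doxo 4 and Doxo+Cyta 20 exceeded both NT libraries, whereas all other relapse libraries lay below them. With all libraries ZFPM1 passed in no comparison, at log2 fold changes of -0.23 for Doxo over NT (SE 0.22, adjusted p = 0.528), -0.14 for Doxo+Cyta over NT (SE 0.22, adjusted p = 0.768) and -0.44 for Doxo+Cyta+DAC over NT (SE 0.21, adjusted p = 0.0915). Without the 2 libraries it was lower than in NT in all 3 kinds of relapse, with log2 fold changes of -0.52 (adjusted p = 0.00128), -0.41 (adjusted p = 0.0142) and -0.47 (adjusted p = 0.000266). Between Doxo+Cyta+DAC and Doxo its log2 fold change was -0.22 with them (adjusted p = 0.331) and 0.06 without (adjusted p = 0.574).

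TAL1 and LMO2, which share a complex with GATA1, moved less. TAL1 read 390.1 and 417 CPM in NT, 367, 402 and 402 CPM in Doxo, 446, 362 and 428 CPM in Doxo+Cyta, and 347, 327, 348 and 350.2 CPM in Doxo+Cyta+DAC. The decitabine libraries were the 4 lowest of the 12, but the gap to Doxo+Cyta 20 was small. TAL1 passed in 1 comparison, being lower in Doxo+Cyta+DAC than in Doxo+Cyta (log2 fold change -0.26, SE 0.09, adjusted p = 0.0207). That call was lost without Doxo+Cyta 19 (adjusted p = 0.0867), Doxo+Cyta 22 (0.0586) or Doxo+Cyta+DAC 31 (0.053). The log2 fold change was -0.23 against NT (SE 0.10, adjusted p = 0.0706) and -0.19 against Doxo (SE 0.09, adjusted p = 0.0908). Both also passed under upper-quartile scaling (adjusted p = 0.0153 and 0.0395), with at least 10 counts required in every sample (0.0329 and 0.047) and with only the compared groups in the fit (0.00964 and 0.0463). Both passed without Doxo 4 and Doxo+Cyta 20, at -0.26 (adjusted p = 0.00323) and -0.22 (adjusted p = 0.00716). The change over Doxo+Cyta was then -0.35 (adjusted p = 0.000266).

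LMO2 read 141 and 134 CPM in NT. It read 115, 110.0 and 107 CPM in Doxo, 117, 127 and 115 CPM in Doxo+Cyta, and 85.1, 113, 95.5 and 101 CPM in Doxo+Cyta+DAC. All 10 relapse libraries lay below both NT libraries, and Doxo+Cyta+DAC 31 overlapped the Doxo libraries. LMO2 was lower in Doxo+Cyta+DAC than in NT (a log2 change of -0.48, SE 0.11, adjusted p = 0.0032) and 1.22 times lower than in Doxo+Cyta (-0.28, SE 0.10, adjusted p = 0.0254). The second call was lost without Doxo+Cyta 20 (adjusted p = 0.0575), Doxo+Cyta+DAC 30 (0.0799) or Doxo+Cyta+DAC 32 (0.0609), with no filter on low counts (0.0529) and with only these groups in the fit (0.0545). In Doxo relative to NT the log2 fold change was -0.32 (SE 0.12, adjusted p = 0.104), and without the 2 libraries -0.38 (adjusted p = 0.0185).

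KLF1 and FLI1, the factors of the opposing branches, both fell in the decitabine relapses. KLF1 read 156 and 138 CPM in NT, 129, 127 and 132 CPM in Doxo, and 138, 147 and 138 CPM in Doxo+Cyta. In Doxo+Cyta+DAC it read 108, 74.3, 73.3 and 104 CPM. The decitabine libraries lay below all others and formed a higher and a lower pair. KLF1 was 1.64 times lower than in NT (a log2 change of -0.71, SE 0.15, adjusted p = 0.00151). Against Doxo the log2 fold change was -0.53 (SE 0.13, adjusted p = 0.00406), and against Doxo+Cyta it was -0.65 (SE 0.13, adjusted p = 0.000841).

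FLI1 fell furthest of the 10 factors in each comparison with Doxo+Cyta+DAC. Its level was 351 and 359 CPM in NT, 263, 379 and 376 CPM in Doxo, 360.4, 281 and 421 CPM in Doxo+Cyta, and 166, 153, 147 and 149 CPM in Doxo+Cyta+DAC. The decitabine libraries lay far below all others, and Doxo 4 and Doxo+Cyta 20 were the lowest of the remainder. FLI1 was 2.31 times lower than in NT (a log2 change of -1.21, SE 0.16, adjusted p = 4.4e-05). It was 2.21 times lower than in Doxo (-1.14, SE 0.14, adjusted p = 1.44e-05) and 2.31 times lower than in Doxo+Cyta (-1.21, SE 0.14, adjusted p = 7.69e-06). These log2 fold changes became -1.23, -1.29 and -1.35 without Doxo 4 and Doxo+Cyta 20, all called. Over NT, the log2 change was -0.06 for Doxo (SE 0.17, adjusted p = 0.842) and -0.0023 for the drug pair (SE 0.17, adjusted p = 0.997).

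**Figure D3:**
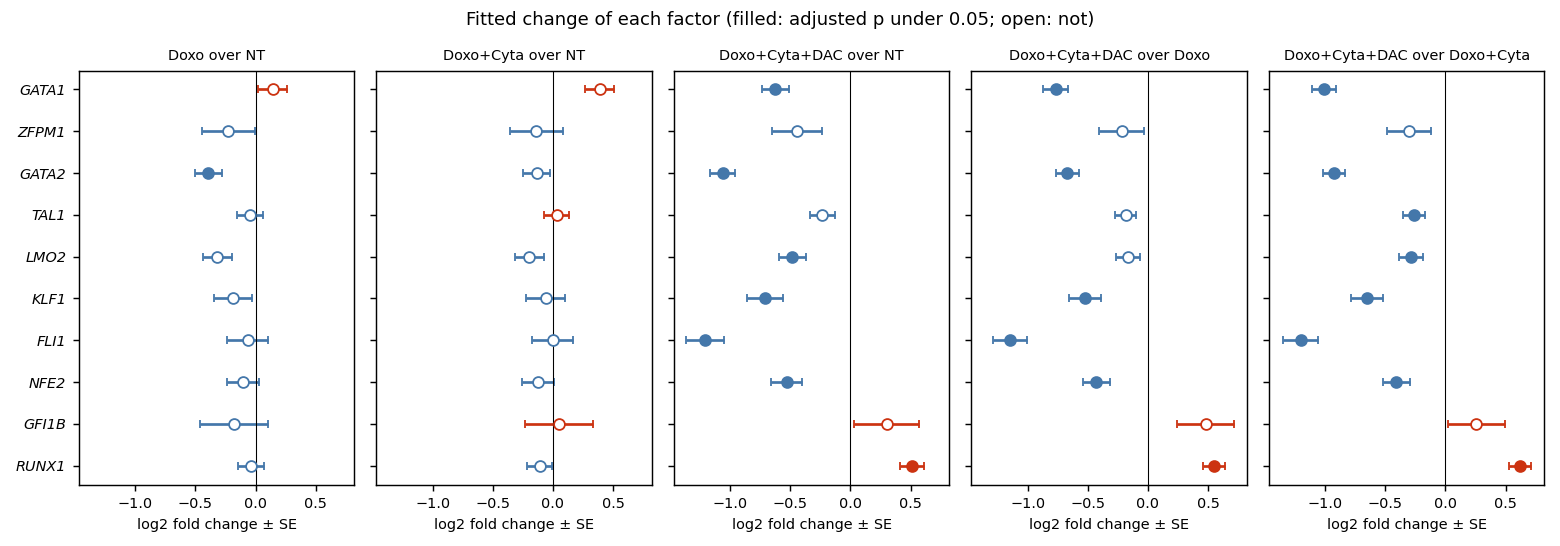
Fitted log2 fold change ± SE (horizontal axes) of each factor in 5 comparisons, filled where the adjusted p was under 0.05; blue is lower and red higher. FLI1 at -1.21 and GATA2 at -1.06 are the furthest to the left in Doxo+Cyta+DAC over NT, RUNX1 at 0.51 is the filled point to the right, and GATA2 is the filled point in Doxo over NT.

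NFE2, the basic leucine zipper factor of globin and platelet genes, was lower in the decitabine relapses. It read 289 and 282 CPM in NT, 253, 280.0 and 266 CPM in Doxo, 231, 301 and 255 CPM in Doxo+Cyta, and 205, 164, 206 and 216 CPM in Doxo+Cyta+DAC. All 4 decitabine libraries were below the 8 others, and the NT and Doxo+Cyta libraries overlapped. The log2 fold changes were -0.53 over NT (SE 0.13, adjusted p = 0.00335), -0.43 over Doxo (SE 0.11, adjusted p = 0.00466) and -0.41 over Doxo+Cyta (SE 0.11, adjusted p = 0.00612).

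GFI1B, a repressor of progenitor genes, spread most widely within Doxo and Doxo+Cyta. It read 174 and 181 CPM in NT, 219, 126 and 125 CPM in Doxo, 138, 271 and 141 CPM in Doxo+Cyta, and 190.3, 207, 225 and 253 CPM in Doxo+Cyta+DAC. The decitabine libraries lay above both NT libraries, Doxo 4 and Doxo+Cyta 20 lay above NT as well, and the other 4 relapse libraries lay below NT. With all libraries no comparison passed, at log2 fold changes over NT of -0.18 for Doxo (SE 0.28, adjusted p = 0.712), 0.05 for Doxo+Cyta (SE 0.28, adjusted p = 0.947) and 0.30 for Doxo+Cyta+DAC (SE 0.27, adjusted p = 0.375). Without the 2 libraries GFI1B was lower than in NT in Doxo (-0.53, adjusted p = 0.00313) and Doxo+Cyta (-0.37, adjusted p = 0.0432) and higher in Doxo+Cyta+DAC (0.28, adjusted p = 0.0244). The change of Doxo+Cyta over NT thus turned its sign. Doxo+Cyta+DAC over Doxo was 0.48 with all libraries (SE 0.24, adjusted p = 0.0972) and 0.81 without the 2 (adjusted p = 1.05e-05). Over Doxo+Cyta it was 0.26 with them (SE 0.24, adjusted p = 0.369), or 0.65 in their absence (adjusted p = 7.17e-05).

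RUNX1 was the factor that rose. It read 315 and 338 CPM in NT, 333, 309 and 315 CPM in Doxo, 312, 280.3 and 316 CPM in Doxo+Cyta, and 437, 485, 509 and 435 CPM in Doxo+Cyta+DAC. Every decitabine library lay above all 8 others, and the 3 other groups overlapped each other. The log2 fold changes were 0.51 over NT (SE 0.10, adjusted p = 0.00114), 0.55 over Doxo (SE 0.09, adjusted p = 0.000151) and 0.62 over Doxo+Cyta (SE 0.09, adjusted p = 4.63e-05), a rise of 1.54-fold in the last.

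Ratios of 2 factors within a library do not depend on depth or scaling, and were taken for the pairs that are known to alternate. The log2 ratio of GATA1 to GATA2 per kb was -0.50 and -0.65 in NT. It was -0.20, 0.08 and 0.00 in Doxo, -0.08, -0.03 and -0.04 in Doxo+Cyta, and -0.04, -0.26, -0.16 and -0.07 in Doxo+Cyta+DAC. All 10 relapse libraries thus had more GATA1 per GATA2 than both untreated libraries, and this difference from NT was not tested. The relapses overlapped each other, with a difference of -0.09 between Doxo+Cyta+DAC and Doxo (exact permutation test, two-sided, p = 0.371, adjusted p = 0.371) and of -0.08 between Doxo+Cyta+DAC and Doxo+Cyta (exact permutation p = 0.286, adjusted p = 0.371).

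The log2 ratio of KLF1 to FLI1 per kb was 0.27 and 0.06 in NT. It was 0.41, -0.14 and -0.07 in Doxo, 0.06, 0.51 and -0.17 in Doxo+Cyta, and 0.82, 0.40, 0.43 and 0.93 in Doxo+Cyta+DAC. The decitabine libraries were the highest except that Doxo 4 and Doxo+Cyta 20 reached the lower 2 of them. The mean ratio was higher by 0.58 than in Doxo (exact permutation test, two-sided, p = 0.0571, adjusted p = 0.229) and by 0.51 than in Doxo+Cyta (exact permutation p = 0.143, adjusted p = 0.286). The smallest p that 4 against 3 libraries allow is 0.0286, and the p-values were adjusted over these 4 tests. Without Doxo 4 the first difference was 0.75 (exact permutation p = 0.0667), and without Doxo+Cyta 20 the second was 0.70 (exact permutation p = 0.0667). With 4 against 2 libraries 0.0667 is the smallest p that this test can give, and it is reached because the groups then do not overlap.

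**Figure D4:**
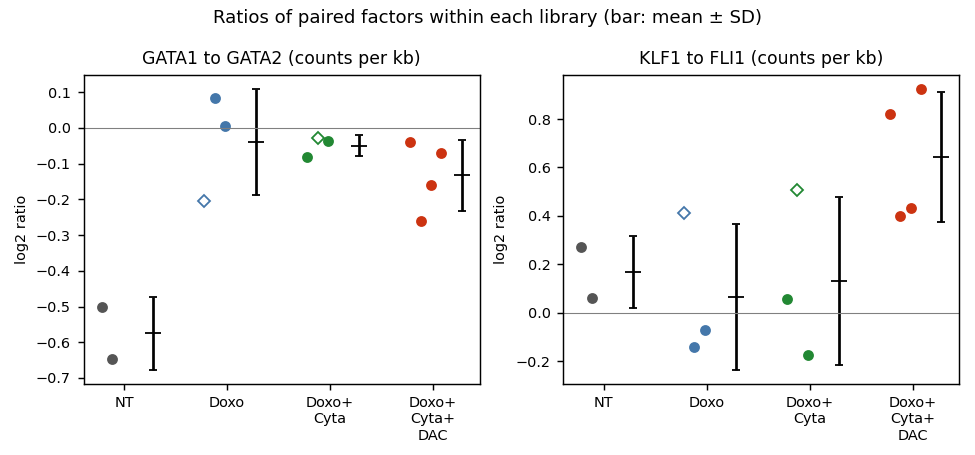
Log2 ratio of counts per kb (vertical axes) of GATA1 to GATA2 and of KLF1 to FLI1 in each library, with the mean ± SD of each group; open diamonds are Doxo 4 and Doxo+Cyta 20. GATA1 to GATA2 lies between -0.65 and -0.50 in NT and at or above -0.26 in every relapse, while KLF1 to FLI1 is highest in Doxo+Cyta+DAC, where the open diamonds overlap its lower points.

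Transcripts of the proteins that work with these factors changed in both directions in Doxo+Cyta+DAC relative to NT, a comparison in which 48.7% of all tested genes were called, 24.9% higher and 23.7% lower. The counts of the partner lists are to be read against these shares. Of the 15 tested genes of the TAL1 complex and its E-protein partners, 4 were higher and 5 lower (median log2 fold change -0.09). LDB1, the protein that LMO2 recruits, fell from 462 ± 8.69 CPM in NT (n = 2) to 217 ± 7.27 CPM (n = 4), with a log2 fold change of -1.09 (SE 0.10). CBFA2T2, a corepressor of the ETO family, fell by 1.97 on the log2 scale. ID1, an inhibitor of basic helix-loop-helix factors, rose by 1.14, and SSBP4 and SIN3A rose by 0.91 and 0.54. CBFA2T3, the other CBFA2T gene of the list, did not pass over NT (0.16, adjusted p = 0.452). It was higher than in Doxo (0.63, adjusted p = 0.00204).

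Of 6 tested partners and relatives of NFE2, 3 were higher and 1 lower (median log2 fold change 0.19). The small MAF protein genes, whose products pair with NFE2, parted ways: MAFK rose by 0.92 and MAFG fell by 0.81 on the log2 scale. NFE2L2 (NRF2) and NFE2L1, relatives of NFE2, rose by 1.34 and 0.64. Among 3 RUNX partners and paralogs, CBFB, the subunit that RUNX1 binds, rose by 0.55 on the log2 scale, from 68.6 ± 1.38 CPM in NT to 100.2 ± 7.32 CPM. It also rose over Doxo (0.63, SE 0.11) and over Doxo+Cyta (0.85, SE 0.11), as RUNX1 did.

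The list of corepressors that GFI1B and ZFPM1 recruit also held their paralogs GFI1 and ZFPM2, neither of which passed in Doxo+Cyta+DAC over NT. Of 18 tested genes, 9 were higher, 1 was lower and 8 did not pass, so that 55.6% were called beside 48.7% of all genes. The median log2 fold change was 0.35 beside 0.02 for all genes. GATAD2A of the NuRD complex rose by 1.21 on the log2 scale, from 127 ± 4.65 to 294 ± 21.5 CPM. HDAC1, a histone deacetylase, rose by 1.04 and CTBP2 by 0.59, while MTA3 of the NuRD complex fell by 0.33. Relative to Doxo 10 were higher and 2 lower (66.7% called, beside 59.5% of all genes), and relative to Doxo+Cyta 10 were higher and 3 lower (72.2%, beside 60.3%). The paralog ZFPM2 was among the lower genes in both, at log2 fold changes of -1.53 and -1.35.

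Of 14 tested KLF and globin-switching factors, 3 were higher and 2 lower than in NT (median log2 fold change -0.18). The repressor of fetal globin ZBTB7A rose by 0.84 on the log2 scale, and KLF10 fell by 1.99, from 216 ± 8.27 to 54.2 ± 7.24 CPM. Of 13 ETS and megakaryocytic factors, 3 were higher and 2 lower (median -0.12). The closest relative of FLI1 in the list, ERG, rose from 7.48 ± 0.553 to 21.9 ± 6.50 CPM (log2 fold change 1.55, SE 0.23) where FLI1 fell. MECOM rose by 1.06 and SRF by 0.60, while MEIS1 fell by 0.90 and ETV6 fell by 0.37.

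**Figure D5:**
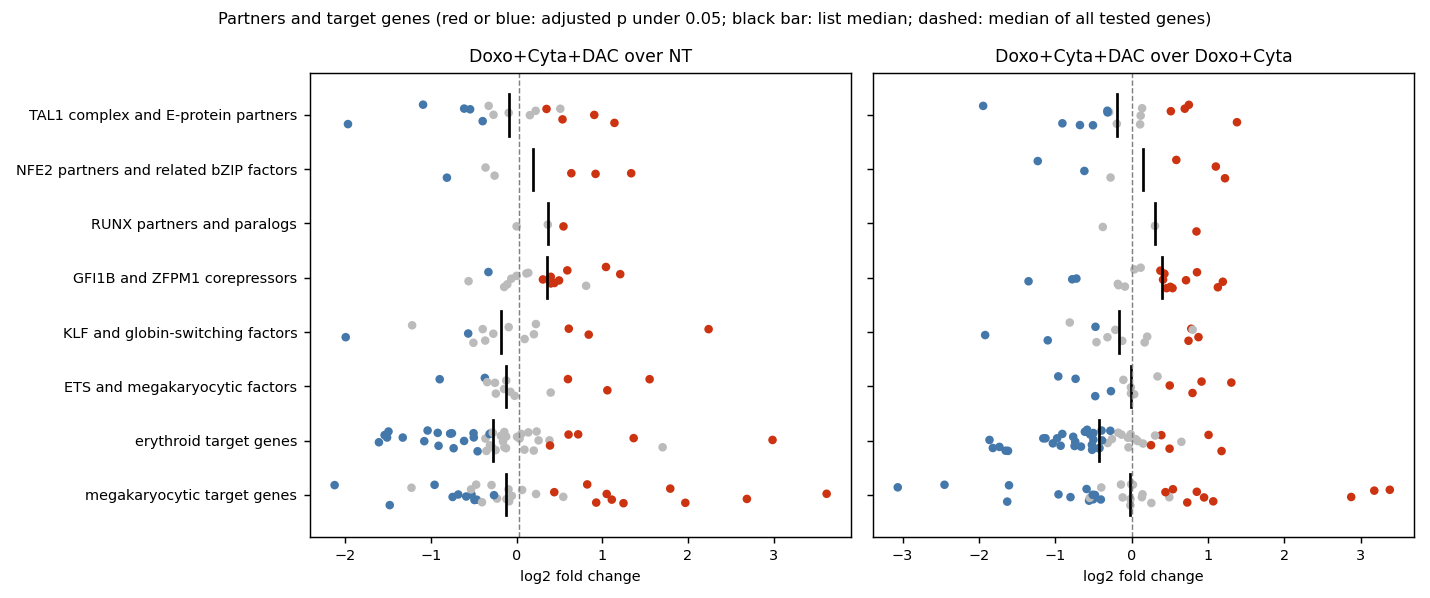
Log2 fold change (horizontal axes) of each tested gene of 8 lists in Doxo+Cyta+DAC over NT and over Doxo+Cyta; red and blue points have an adjusted p under 0.05, grey do not, black bars are list medians and dashed lines the median of all tested genes. The medians of the erythroid targets are -0.28 and -0.43, and those of the corepressor list 0.35 and 0.39.

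Among the genes that these factors are known to drive, the erythroid targets were called about as often as all genes against NT. Of 45 tested erythroid targets, 17 were lower and 5 higher in Doxo+Cyta+DAC than in NT (median log2 fold change -0.28), 23 and 5 relative to Doxo (-0.33), and 27 and 5 relative to Doxo+Cyta (-0.43). These are 48.9%, 62.2% and 71.1% of the targets, beside 48.7%, 59.5% and 60.3% of all genes, of which 23.7%, 30.4% and 30.5% were lower. The heme enzyme gene CPOX fell by 1.54 on the log2 scale relative to NT, from 357 ± 1.73 to 123 ± 17.7 CPM. TMCC2 was among the largest falls, from 29.5 ± 0.895 to 9.68 ± 1.17 CPM. The adult globin gene HBB fell by 1.73 relative to Doxo+Cyta, from 507 ± 27.4 to 153 ± 44.5 CPM, and SLC25A37, the mitochondrial iron importer, fell by 1.86. The embryonic globin gene HBE1 moved the other way, from 164 ± 17.8 CPM in NT to 1299 ± 568 CPM (log2 fold change 2.99, SE 0.33), and it was also higher in Doxo at 1209 ± 26.1 CPM and in Doxo+Cyta at 574 ± 104 CPM. HBA2 rose by 1.37 and GYPB by 0.72 relative to NT, but both have near-identical copies whose shared fragments were not counted, so their levels are uncertain. Without Doxo 4 and Doxo+Cyta 20 the counts of lower and higher erythroid targets were 20 and 5 against NT, 24 and 6 against Doxo, and 27 and 6 against Doxo+Cyta. With those libraries left out, 60.7%, 67.9% and 66.8% of all genes were called in the same comparisons.

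The megakaryocytic targets moved in both directions. Of 33 tested, 10 were higher and 10 lower in Doxo+Cyta+DAC than in NT (median log2 fold change -0.12), 8 and 14 relative to Doxo (-0.22), and 9 and 12 relative to Doxo+Cyta (-0.02). The called shares were 60.6%, 66.7% and 63.6%, beside 48.7%, 59.5% and 60.3% of all genes. The platelet receptor subunit gene GP9 fell by 2.12 on the log2 scale, from 137 CPM on average in NT to 31.5 ± 8.55 CPM, and TUBB1, the platelet tubulin, fell from 41.3 ± 1.86 to 14.9 ± 3.90 CPM. The collagen receptor gene GP6 rose from 7.36 ± 1.39 to 47.3 ± 8.28 CPM (log2 fold change 2.69, SE 0.42). THBS1 rose by 3.62, but with 154 ± 114 CPM its libraries spread widely. Without Doxo 4 and Doxo+Cyta 20 the lower and higher counts were 12 and 10 against NT, 15 and 10 against Doxo, and 14 and 9 against Doxo+Cyta. The shares of all genes called were then 60.7%, 67.9% and 66.8%.

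After chemotherapy without decitabine, fewer targets differed from NT, as did fewer genes of any kind (10.7% in Doxo and 1.46% in Doxo+Cyta). In Doxo, 6 erythroid targets were higher and 5 lower, and 3 megakaryocytic targets were higher, or 24.4% and 9.09% of those tested. In Doxo+Cyta the counts were 3 erythroid targets higher and none lower, and 3 megakaryocytic targets higher and 1 lower, or 6.67% and 12.1%. CLU and SPARC, both platelet granule proteins, rose in both groups. CLU rose by 1.24 and 1.23 on the log2 scale, from 245 ± 3.07 CPM in NT to 579 ± 21.0 and 574 ± 75.1 CPM. SPARC rose by 0.94 and 0.84. Both were also higher in Doxo+Cyta+DAC than in NT, CLU by 1.25 (adjusted p = 2.34e-05) and SPARC by 0.44 (adjusted p = 0.0321). In Doxo and Doxo+Cyta the partner lists held between 0 and 3 called genes each, with LDB1 lower in Doxo (-0.36, SE 0.11, adjusted p = 0.043), as GATA2 was.

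GATA1, GATA2 and FLI1 were the factors whose group means spanned more than 1 on the log2 scale, at 1.01, 1.07 and 1.21. The genes whose profile over the 12 libraries was closest, by the root-mean-square difference of centred log2 CPM, were PARP10 (0.07), TSPAN4 (0.08) and PQLC1 (0.08) for GATA1. WT1-AS, HDAC7 and TRIB2 came closest to GATA2, at 0.11 to 0.12, and TBC1D12, RAB5B and YEATS2 to FLI1, at 0.10 to 0.11. HDAC7, for example, stood at 213, 148, 195 and 108 CPM on average in the groups from NT to Doxo+Cyta+DAC, in the order given at the start, and so shared the dip of GATA2 after doxorubicin. These distances describe the profiles and carry no test.

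On GRCh38 the factors lie at separate places: GATA1 at chrX:48786574-48794310, GATA2 at chr3:128479422-128493187, KLF1 at chr19:12884423-12887203, TAL1 at chr1:47216290-47232335 and LMO2 at chr11:33858576-33892289. NFE2 lies at chr12:54292107-54301037, GFI1B at chr9:132945545-132991697, ZFPM1 at chr16:88453606-88535166, RUNX1 at chr21:34787801-35049298 and FLI1 at chr11:128686535-128813267. In the counting annotation none of their exons shared a base with an exon of another gene. GATA2-AS1, RUNX1-IT1 and SENCR overlap the spans of GATA2, RUNX1 and FLI1, and the microRNA genes MIR548AW and MIR5189 those of GFI1B and ZFPM1, without sharing an exon. The counting did not use strand, so antisense reads over an exon cannot be told apart from those of the gene.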

How the data were processed

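RNA from 12 cultures of HEL cells was sequenced as paired-end reads from TruSeq libraries. The authors aligned quality-filtered reads to GRCh38 with Bowtie2 2.2.8 and counted fragments per gene with featureCounts 1.6.0, ignoring strand and, by that tool's defaults, leaving out fragments with more than 1 alignment or gene. The deposited values are raw counts, which are not normalized. Bowtie2 does not split reads over exon junctions, so reads that cross a junction can be lost. Of 26485 genes, 4 lacked a count and 26481 were kept. Groups came from the sample titles.

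Counts were tested with edgeR 4.0.16 in R 4.3.3: filterByExpr (14164 genes), TMM scaling, all 12 samples in 1 quasi-likelihood fit (glmQLFit, glmQLFTest), two-sided, with Benjamini-Hochberg adjustment over all tested genes of each of the 6 comparisons and calls at an adjusted p under 0.05. SEs were derived from each log2 fold change and its F statistic. Levels are TMM-scaled CPM, put on the log2 scale with 2 as prior count. Ratios were compared by exact permutation over samples. The procedure was tested on simulated counts. All 10 factors are named. Other genes are named by rule: the 3 profiles closest to a factor that spans more than 1 log2 unit, and from each list up to 3 called genes per direction with the largest change, a mean of at least 1 CPM and no overlap of libraries. The factors, gene lists and rules were chosen with earlier results of these data known. The alternatives were RLE and upper-quartile scaling, DESeq2 1.42.0, other filters, a stricter threshold, only the compared groups in the fit, and leaving out each replicate. Leaving out Doxo 4 and Doxo+Cyta 20 together was added after the data were seen. Sequences come from RefSeq (GRCh38.p14), and the deposited gene length, in bases, was used for levels per kb. Tables and plots were made in Python 3.11.15 (pandas 2.3.3, numpy 2.4.6, matplotlib 3.10.9).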

Additional observations from a re-analysis of the deposited data

Results flagged for a closer look

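In the 4 Doxo+Cyta+DAC libraries, each of the 10 factors and both ratios was examined for a library far from the others, by the gap to its neighbor as a share of the range (Dixon's ratio, at its 95% limit). Groups of 2 or 3 libraries were not examined in this way. TAL1 exceeded it at 0.866, where Doxo+Cyta+DAC 31 was low at 8.35 log2 CPM, and ZFPM1 at 0.957, where Doxo+Cyta+DAC 30 was high at 5.60 log2 CPM. Chance marks about 1 in 20 such groups. The libraries differ between the genes, and the ranges were narrow, from 327 to 350.2 CPM for TAL1 and from 42.0 to 48.4 CPM for ZFPM1. Why these libraries differ was not tested.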

How the results depend on the processing

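Of 780 values of single factors under the alternatives, 33 changed their call or, in 1 case, their direction. RLE scaling changed none of 60, and leaving out Doxo 4 and Doxo+Cyta 20 together changed 11 of 60. That exclusion turned GFI1B in Doxo+Cyta over NT to -0.37 (adjusted p = 0.0432) and moved the called factors from 1 to 4 in Doxo over NT and from 0 to 2 in Doxo+Cyta over NT. The stricter threshold, an adjusted p under 0.01 and a fold over 2, moved the counts from 1 to 0 in Doxo over NT, from 7 to 2 in Doxo+Cyta+DAC over NT, from 6 to 1 over Doxo and from 8 to 2 over Doxo+Cyta. Of all tested genes, 1.55%, 16.2%, 21.6% and 23.3% passed that threshold in these comparisons. Leaving out 1 replicate gave 0 to 1 in Doxo over NT, where losing NT 1, NT 2, Doxo 5 or Doxo 6 gave 0, and otherwise 7 factors in Doxo+Cyta+DAC over NT, 6 to 7 over Doxo and 7 to 8 over Doxo+Cyta. TAL1 passed in Doxo+Cyta+DAC over NT under upper-quartile scaling (adjusted p = 0.0153), DESeq2 (0.0471), 10 counts in every sample (0.0329) and only those groups in the fit (0.00964), and over Doxo under these except DESeq2 (0.0395, 0.047 and 0.0463). ZFPM1 passed over NT with only those groups in the fit (0.00158). All 4 ratio differences kept their direction under the alternatives run. With 1 library left out no p under 0.05 is possible for them, so this says nothing about their tests. Over all genes, the share called in Doxo+Cyta over NT ranged from 0.0% to 14.5%, and upper-quartile scaling moved the split of Doxo+Cyta over Doxo from 152 higher and 329 lower to 205 and 249. With 1 NT sample left, its spread is taken from the other groups. No paired analysis was possible because the groups share no replicate numbers. With 2 untreated samples, small changes over NT are the least certain.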
